A study of Mus musculus with 12 samples.

Results

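The interaction of a human KDM6B transgene with loss of Tet2 was measured gene by gene in blood stem and progenitor cells of the mouse. For each gene it was the mean log2 value of the double lesion, minus the mean of the transgene alone, minus the mean of Tet2 loss alone, plus the mean of the Vav Cre group. All 12 of the 12 libraries entered it, 3 in each of the 4 groups, and 13046 of the 15366 genes in the table passed the filter on low values and were tested. The double lesion carried Vav human KDM6B together with Vav Cre and Tet2 flox/flox. The KDM6B OE group carried Vav human KDM6B, and its label names no Cre. Tet2 KO cells carried Vav Cre and Tet2 flox/flox, and the last group carried Vav Cre alone. All animals were C57BL/6 and untreated, and no age or sex is given here. Vav regulatory sequence directs both the transgene and the recombinase to blood cells, so Tet2 is removed in that lineage and not in the whole animal. Because the label of KDM6B OE has no Cre, any effect of Vav Cre itself enters the interaction and cannot be told apart from an interaction of the 2 lesions.

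Poly(A) RNA was sequenced from LSK cells of the bone marrow, which lack mature lineage antigens and display Sca-1 and Kit, a gate that captures the haematopoietic stem cells with their earliest multipotent descendants. Values are CPM, the share of a library's reads after the authors' scaling. They rest on 21935022 to 26263370 reads on listed genes per library, and a single read was worth 0.0373 to 0.0463 CPM. The sort markers were present in all 12 libraries, with Kit at 356 to 907 CPM, Ly6a (Sca-1) at 78.2 to 180.0 CPM and Cd34 at 821 to 1053 CPM. The T cell markers Cd3e and Cd3d stayed at or below 1.43 CPM, but markers of other lineages reached higher in single libraries. The eosinophil genes Prg2 and Epx reached 2917 and 1043 CPM, and the mast cell and basophil gene Mcpt8 104 CPM. The monocyte gene Csf1r reached 53.6 CPM, the B cell gene Cd79a 49.8 CPM and the neutrophil gene S100a8 11.1 CPM. The libraries differed in sex. Transcripts of the Y chromosome were found in double-lesion libraries 1 and 3, Tet2 KO 1 and Vav Cre 1, and in no KDM6B OE library. The median SD between replicates (log2) was 0.15 in the double lesion, 0.15 in KDM6B OE, 0.21 in Tet2 KO and 0.28 in Vav Cre. Whether replicates were different mice is not stated, and a p-value here reflects the scatter of the deposited libraries, some of which may be technical.

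KDM6B is a demethylase that removes the repressive mark H3K27me3 laid down by the Polycomb complex PRC2, and TET2 oxidises methylated cytosine in DNA. Both act in the direction of opening silenced chromatin, and loss-of-function mutations of TET2 are common in clonal haematopoiesis and myeloid neoplasms. On a log2 scale, 2 lesions that act independently multiply their folds, and the interaction is then 0. A value above 0 means that the double lesion stood higher than the product of the single-lesion folds, and a value below 0 that it stood lower. Neither sign says by itself whether the double lesion was above or below Vav Cre.

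No gene passed the test of the interaction. With limma on log2(CPM + 1) and Benjamini-Hochberg adjustment, 0 of 13046 genes (0%) had an adjusted p under 0.05, and the smallest adjusted p was 0.753. At an unadjusted p under 0.05 there were 578 genes (4.43%), of which 187 (1.43%) lay above the additive expectation and 391 (3%) below it. edgeR's quasi-likelihood test on the reads recovered from the table called 0 genes, with 539 at an unadjusted p under 0.05. DESeq2 on the same reads called 5, which are named below. The imbalance between the directions was kept with equal column totals, at 178 above and 356 below. It was smaller with quantile normalization, at 256 above and 298 below. With a trend on gene length and GC content removed it was also smaller, at 290 above and 344 below. Omitting Vav Cre 3 gave 1249 genes at an unadjusted p under 0.05 and omitting KDM6B OE 2 gave 380, with 0 called either way. The smallest adjusted p in limma depended on the libraries. It was 0.0717 with weights per library, 0.113 without Vav Cre 2 and 0.135 without Vav Cre 3. In other fits it rose, to 0.994 without double lesion 1 and 0.999 without KDM6B OE 3.

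**Figure D1:**
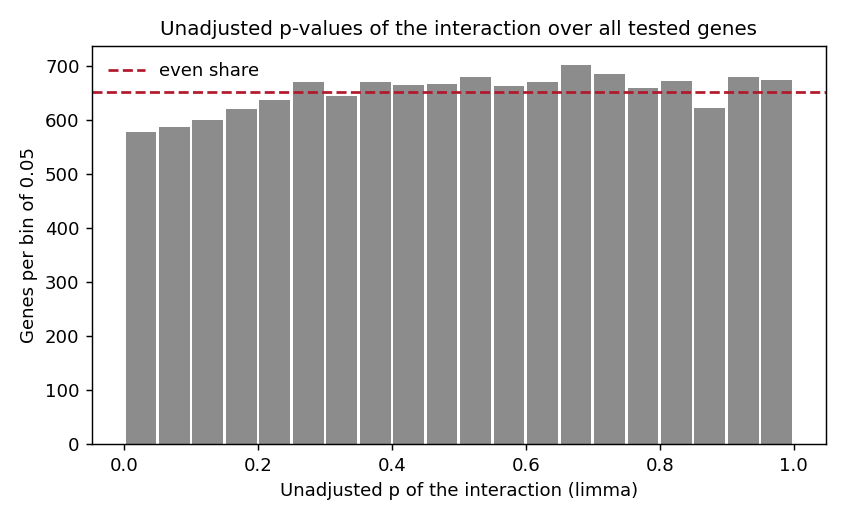
Number of genes (y axis) in each 0.05-wide bin of the unadjusted limma p of the interaction (x axis), over 13046 tested genes. The bins hold 578 to 702 genes around an even share of 652 (dashed line), and the lowest bin is the one with 578.

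Across all tested genes the median interaction was -0.03 (log2), with quartiles of -0.22 and 0.15. Values were above 0 in 5867 genes (45%) and below 0 in 7179 (55%). The interaction exceeded 1 in absolute size, a 2-fold departure from the additive expectation, in 243 genes, 98 above and 145 below. The median SE was 0.27, and the 95% interval lay within plus or minus 1 for 8584 genes (65.8%), so a 2-fold departure lay outside the interval of those genes. For the other 4462 genes (34.2%) the interval reached past 1 in at least 1 direction. The interval lay within 1 for 95.4% of the genes averaging above 100 CPM, but for only 18.8% of those between 1 and 10 CPM, so a 2-fold interaction of a lowly expressed gene was often not detectable.

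The order of the group means was read in the genes with small p-values, whose choice by this contrast already favours Vav Cre or the double lesion as the extreme group. Of the 391 genes below the additive expectation at an unadjusted p under 0.05, Vav Cre had the lowest group mean in 306, and the double lesion had the lowest in 84. Of the 187 genes above it, Vav Cre had the highest mean in 117 and the double lesion in 68. Over all 13046 genes Vav Cre had the lowest mean in 5117 and the highest in 4055. The double lesion had the lowest in 3907 and the highest in 3904. In most of the genes with small p-values the 3 lesion groups therefore stood on 1 side of Vav Cre. Vav Cre was the group farthest from the mean of the other 3 in 255 of the 391 (65.2%) and in 74 of the 187 (39.6%), against 5873 of all 13046 genes (45%), so its share was above that of all genes on the lower side and below it on the higher side. These counts are a description with no test. The Vav Cre libraries also had the widest spread, and its part in the counts was not tested.

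The targeted genes were read in every library. Tet2 (chromosome 3, 133463679 to 133545139, GRCm38) had 37.2, 35.1 and 26.5 CPM in the double lesion, 64.9, 87.6 and 84.5 CPM in KDM6B OE, 31.6, 24.9 and 24.1 CPM in Tet2 KO and 82.9, 66.2 and 97.1 CPM in Vav Cre. All 6 libraries with the floxed allele under Vav Cre lay below all 6 libraries without it, as the labels imply. The interaction was 0.33 ± 0.26 (95% interval -0.22 to 0.89). Mouse Kdm6b (chromosome 11, 69398508 to 69413675) had 9.92, 12.3 and 9.299 CPM in the double lesion, 12.5, 7.79 and 10.4 CPM in KDM6B OE, 6.902, 5.46 and 5.77 CPM in Tet2 KO and 6.37, 6.54 and 7.91 CPM in Vav Cre, and its interaction was 0.22 ± 0.31 (-0.44 to 0.88). The human transgene is not a row of the mouse gene table, and part of its reads could align to mouse Kdm6b. Exons of both genes overlap a transcript on the opposite strand, and the kit does not keep strand.

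The genes of the stimulus response fall into 8 lists, which cover AP-1 subunits, Egr and Nr4a factors, Krüppel-like factors, MAP kinase phosphatases, mRNA decay and Btg genes, Ier genes, the NF-kB group, and chemokines and cytokines. Over these 8 lists 76 members were tested, with 27 interactions above 0 and 49 below. At an unadjusted p under 0.05 there was 1 (1.32%, against 4.43% of all genes), Spry4, an inhibitor of growth factor signalling, at 1.10 ± 0.45. The median of the 76 values was -0.14, against -0.03 for all genes. By list median, every library with the transgene lay above every library without it in 6 of the 8 lists, and the groups overlapped in the chemokines and cytokines and in the Krüppel-like factors. The gap was narrow in the NF-kB group, with 0.38 for the lowest library with the transgene and 0.35 for the highest without it. This count was not made for other lists or for all genes, and it is a description with no test. The lists were written with earlier results of these data known, so the separation is not independent evidence on these genes. The Egr and Nr4a factors had the lowest median of the 8, at -0.35, which was -0.07 without Vav Cre 2, -0.76 without KDM6B OE 3 and -0.83 in the libraries without Y transcripts.

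Fos, the inducible subunit of the AP-1 transcription factor, had 716, 2256 and 2031 CPM in the double lesion, 717, 1666 and 1431 CPM in KDM6B OE, 32.8, 199.6 and 293 CPM in Tet2 KO and 68.6, 54.6 and 182 CPM in Vav Cre. Every library with the transgene lay above every library without it, and the double lesion and KDM6B OE overlapped. The fitted difference from Vav Cre was 4.06 in the double lesion, 3.75 in KDM6B OE and 0.50 in Tet2 KO (SE 0.69 each). The interaction was -0.19 ± 0.98, and its interval (-2.29 to 1.92) was wide. The zinc-finger factor Egr1 had 429, 404 and 673 CPM in the double lesion against 355, 553 and 226 CPM in KDM6B OE, with 38.3, 59.3 and 42.3 CPM in Tet2 KO and 59.3, 17.1 and 38.9 CPM in Vav Cre, and an interaction of 0.05 ± 0.55. Zfp36, whose product degrades cytokine mRNAs, had an interaction of 0.01 ± 0.45, with 370.4, 605 and 636 CPM in the double lesion and 404, 471 and 369.8 CPM in KDM6B OE.

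Ier2 and Ier5 gave the tightest values among these genes. Ier2, an immediate early nuclear protein, had 903, 881 and 917 CPM in the double lesion, 927, 959.97 and 735 CPM in KDM6B OE, 259, 389 and 339 CPM in Tet2 KO and 353, 225 and 315 CPM in Vav Cre. The transgenic groups overlapped each other and lay above the other groups, and the interaction was -0.10 ± 0.24 (-0.62 to 0.43). Ier5, a related stress-induced gene, had 54.8, 62.7 and 66.8 CPM in the double lesion, 46.8, 43.5 and 49.2 CPM in KDM6B OE, 27.01, 27.3 and 24.2 CPM in Tet2 KO and 16.3, 16.6 and 15.9 CPM in Vav Cre. Here the 4 groups did not overlap: the double lesion was highest, KDM6B OE next, then Tet2 KO, then Vav Cre. Relative to Vav Cre its differences were 1.85 in the double lesion, 1.46 in KDM6B OE and 0.65 in Tet2 KO, and the interaction was -0.26 ± 0.18 (-0.66 to 0.13). On the unlogged CPM scale the same contrast was 4.99 CPM, so the sign for Ier5 depended on the scale on which additivity is defined.

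Klf6, a Krüppel-like zinc-finger factor, had 428, 801 and 740.2 CPM in the double lesion, 806, 810.04 and 517 CPM in KDM6B OE, 118, 163 and 137 CPM in Tet2 KO and 124, 106 and 98.8 CPM in Vav Cre, with an interaction of -0.47 ± 0.32. The double-lesion values overlapped those of KDM6B OE, and no Tet2 KO or Vav Cre library reached them. Klf2, a quiescence-linked member of the same family, had 32.5, 101 and 97.8 CPM in the double lesion, 67.3, 88.01 and 97.7 CPM in KDM6B OE, 2.92, 8.38 and 11.3 CPM in Tet2 KO and 8.19, 3.202 and 8.22 CPM in Vav Cre, and an interaction of -0.39 ± 0.66. Double-lesion library 1 was the lowest of the 6 transgenic libraries for Klf2, and it was also the lowest for Fos, Klf6 and Dusp1. Dusp1, a phosphatase that switches off MAP kinases, had an interaction of -0.17 ± 0.48, Junb -0.45 ± 0.29, and Rgs1, a brake on G protein signalling, -0.54 ± 0.35. Ccl4, an inflammatory chemokine, had 128, 159.9 and 167 CPM in the double lesion and 189.6, 101 and 76.01 CPM in KDM6B OE, with an interaction of -0.10 ± 0.41. With each library left out in turn the value for Fos ran from -1.13 to 0.43, that for Dusp1 from -0.69 to 0.14 and that for Ccl4 from -0.39 to 0.26, so their signs are not settled.

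**Figure D2:**
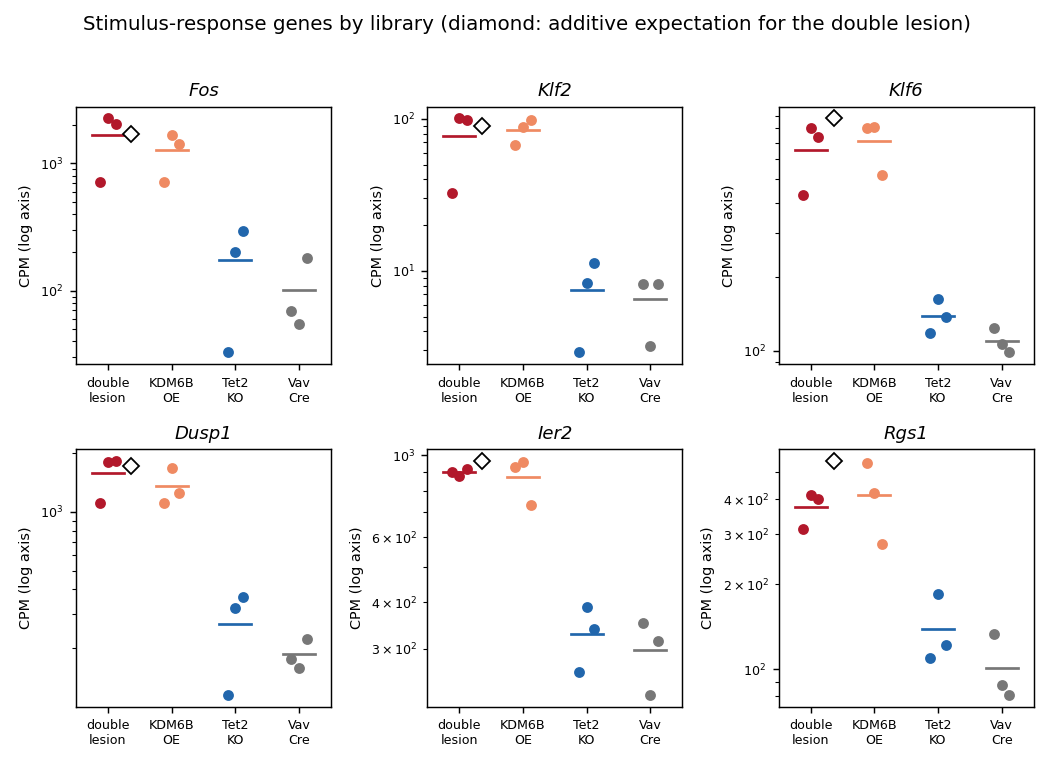
CPM (log y axis) of 6 stimulus-response genes in each library, with points for libraries, bars for group means and an open diamond for the additive expectation of the double lesion computed on the log2(CPM + 1) scale. The double-lesion points lie beside those of KDM6B OE; for Ier2 the interaction was -0.10 ± 0.24 and for Rgs1 -0.54 ± 0.35.

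Replication-dependent histone genes had the highest list median. They encode the core and linker histones made in S phase. Of 46 tested members 44 had a value above 0 and 2 below, with a median of 0.85 against -0.03 for all genes. Of the 46, 23 (50%) had an unadjusted p under 0.05, all above 0, where 1.43% of all genes had one above 0, and 0 passed after adjustment. H2B genes had the highest family median (1.13, 14 of 14 above 0, 9 with an unadjusted p under 0.05), followed by H3 (0.87, 9 of 9 above 0), H2A (0.61, 9 of 10), H4 (0.51, 8 of 8) and H1 (0.33, 4 of 5). The exceptions were the H1 gene Hist1h1c at -0.03 ± 0.28 and the H2A gene Hist3h2a at -0.36 ± 0.24.

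The sign came from single-lesion differences that did not add up. The list median relative to the Vav Cre mean was -0.46 in the double lesion, -0.78 in KDM6B OE and -0.59 in Tet2 KO, where additivity would put the double lesion at -1.31. By library the medians were -0.56, -0.37 and -0.37 in the double lesion, -1.0001, -0.64 and -0.74 in KDM6B OE, -0.97, -0.48 and -0.30 in Tet2 KO and 0.01, 0.20 and -0.19 in Vav Cre. All 9 lesion libraries lay below all 3 Vav Cre libraries, and the double lesion overlapped Tet2 KO. The summed level of the list, dominated by its most abundant members, was 696, 916 and 884 CPM in the double lesion, 883, 840.3 and 840.2 CPM in KDM6B OE, 766, 1077 and 1021 CPM in Tet2 KO and 1452, 1921 and 1106 CPM in Vav Cre. Left out in turn, the libraries gave list medians from 0.66 (without Tet2 KO 1) to 0.93 (without Vav Cre 3).

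Hist1h2bb, an H2B gene (chromosome 13, 23746734 to 23747241), had 6.304, 4.38 and 5.52 CPM in the double lesion, 1.98, 2.87 and 2.97 CPM in KDM6B OE, 2.62, 3.29 and 5.61 CPM in Tet2 KO and 7.301, 8.51 and 6.19 CPM in Vav Cre. The double lesion lay above KDM6B OE and overlapped both Tet2 KO and Vav Cre, with an interaction of 1.65 ± 0.37 (unadjusted p = 0.000589, limma). Hist1h2an, an H2A gene, had 7.65, 7.81 and 7.82 CPM in the double lesion, 3.26, 4.26 and 2.81 CPM in KDM6B OE, 3.901, 4.68 and 8.23 CPM in Tet2 KO and 7.94, 11.9 and 8.52 CPM in Vav Cre and an interaction of 1.69 ± 0.37. Hist2h2bb, another H2B gene, had 6.68, 8.61 and 7.898 CPM in the double lesion, 3.79, 5.9004 and 4.53 CPM in KDM6B OE, 7.72, 7.32 and 12.4 CPM in Tet2 KO and 15.03, 18.3 and 15.02 CPM in Vav Cre, and a value of 1.40 ± 0.33. The H4 gene Hist1h4c reached 1.78 ± 0.51, and the H2B genes Hist1h2bp, Hist1h2bn and Hist1h2bm 1.40 ± 0.38, 1.39 ± 0.39 and 1.42 ± 0.42. Most of these levels are a few CPM. Most messages of this class end in a stem-loop without a poly(A) tail, so an oligo-dT library sees only the polyadenylated part of them. Copies of a histone gene are nearly identical in sequence, so the split of reads among them is uncertain.

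H2B promoters are known for an octamer element, bound by OCT1, which couples them to S phase, and for CCAAT boxes, bound by NF-Y. H2B promoters are shown because these genes carry the highest family median. Other H2B genes had smaller p-values than Hist1h2bm, so the pair below is an example and was not picked by rank. Each is the 250 bases before the RefSeq start (GRCm38.p6, plus strand), at chr13:23746484-23746733 for Hist1h2bb and chr13:21721794-21722043 for Hist1h2bm. Capitals mark the octamer ATTTGCAT and the CCAAT motif, each searched on both strands, so that ATTGG is CCAAT on the minus strand.
Hist1h2bb: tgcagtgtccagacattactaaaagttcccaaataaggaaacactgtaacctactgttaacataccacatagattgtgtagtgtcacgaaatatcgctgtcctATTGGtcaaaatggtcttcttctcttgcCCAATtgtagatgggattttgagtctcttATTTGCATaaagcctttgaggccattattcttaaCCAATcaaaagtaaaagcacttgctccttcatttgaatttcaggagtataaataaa
Hist1h2bm: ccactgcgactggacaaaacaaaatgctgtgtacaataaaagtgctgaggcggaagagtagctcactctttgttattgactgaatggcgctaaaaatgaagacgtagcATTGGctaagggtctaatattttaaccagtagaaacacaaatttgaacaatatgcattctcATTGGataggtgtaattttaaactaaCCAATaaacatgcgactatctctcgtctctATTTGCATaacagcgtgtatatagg
Both hold 1 octamer and 3 CCAAT motifs. Of the 14 H2B genes, 12 matched a RefSeq promoter, with 13 windows. The octamer was in 6 of the 13 H2B windows (46.2%), in 11 of the 43 windows of the whole list (25.6%) and in 1.6% of the 32851 windows of all genes. CCAAT was in 13 of 13 H2B windows and in 33.8% of all. A match is a description of the letters in the window.

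Interferon response genes had the lowest list median. They encode sensors and effectors that type I interferon induces. Of 40 tested members 4 had a value above 0 and 36 below, with a median of -0.38, where 55% of all genes were below 0. Of these 40, 7 (17.5%) had an unadjusted p under 0.05, all below 0, against 3% of all genes in that direction, and 0 passed after adjustment. The list median relative to the Vav Cre mean was 0.26 in the double lesion, 0.23 in KDM6B OE and 0.46 in Tet2 KO, against an additive expectation of 0.63. By library it was 0.21, 0.34 and 0.28 in the double lesion, 0.29, 0.23 and 0.06 in KDM6B OE, 0.16, 0.44 and 0.60 in Tet2 KO and -0.11, 0.13 and -0.02 in Vav Cre. The double lesion stood within the range of the single lesions and above all 3 Vav Cre libraries. With single libraries left out the list median was lowest without Tet2 KO 1 (-0.47) and highest without Tet2 KO 3 (-0.28). With a term for sex it was -0.16 and no longer the lowest, as long-term stem cell genes were at -0.45.

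Oasl2, an oligoadenylate synthetase-like gene, had 130.3, 153 and 144 CPM in the double lesion, 136, 127 and 127 CPM in KDM6B OE, 147, 180.01 and 197 CPM in Tet2 KO and 112, 107 and 106 CPM in Vav Cre. Vav Cre was lowest and Tet2 KO reached highest, while the double lesion overlapped both KDM6B OE and Tet2 KO, and the interaction was -0.55 ± 0.16. Parp9, which acts in interferon signalling with the ubiquitin ligase of the overlapping gene Dtx3l, had a value of -0.53 ± 0.15, and Trim12c, a Trim-family gene taken from earlier results on these data, -0.48 ± 0.19. Oas3, an oligoadenylate synthetase (chromosome 5, 120753098 to 120777661), had 16.3, 23.8 and 18.8 CPM in the double lesion, 23.6, 25.9 and 17.8 CPM in KDM6B OE, 20.2, 18.9 and 23.3 CPM in Tet2 KO and 15.1, 9.74 and 13.2 CPM in Vav Cre and a value of -0.87 ± 0.30.

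The Oas3 promoter is shown as the interferon-list member with the largest departure among those with the smallest p-values. It is the 250 bases before the RefSeq start at chr5:120777660-120777909 on the minus strand (GRCm38.p6). Capitals mark the core of the interferon-stimulated response element (GAAA, any 2 bases, then GAAA again; both strands searched), the kind of sequence that IRF factors bind.
Oas3: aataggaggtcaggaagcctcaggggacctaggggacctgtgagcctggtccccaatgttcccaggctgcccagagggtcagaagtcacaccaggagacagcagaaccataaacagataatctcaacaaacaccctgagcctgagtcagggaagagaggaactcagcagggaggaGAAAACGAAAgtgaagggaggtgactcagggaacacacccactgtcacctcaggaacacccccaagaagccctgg
The core was found once in this window. Of the 40 listed genes, 29 matched a RefSeq promoter with 38 windows, and the core was in 12 of those 38 (31.6%) and in 2.98% of all windows.

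**Figure D3:**
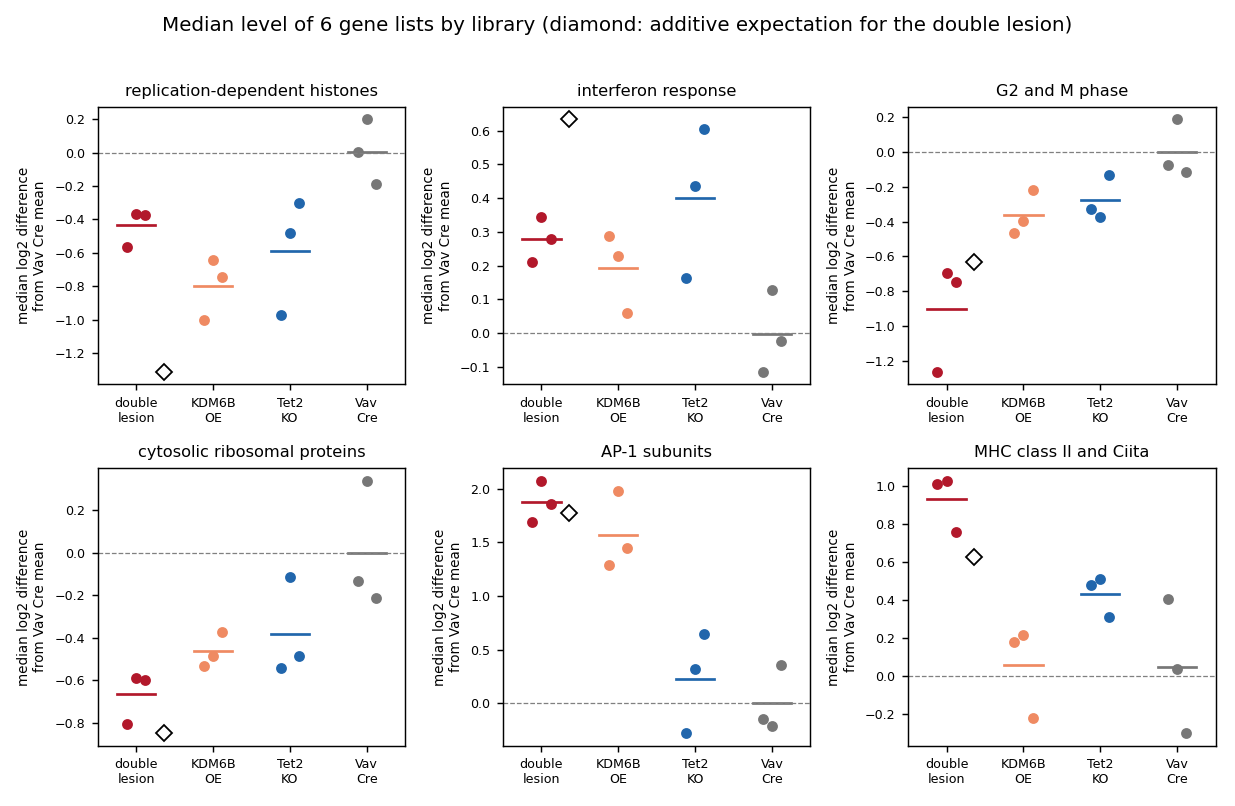
Median log2 difference from the Vav Cre mean (y axis) of 6 gene lists in each library, with bars for group means and an open diamond for the additive expectation of the double lesion. Histone medians of the double lesion (-0.56, -0.37 and -0.37) lie above their expectation of -1.31, interferon medians below theirs of 0.63, and AP-1 medians near theirs of 1.78.

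Genes of G2 and M phase lay below additivity in number but by a small amount. Of 40 tested members 5 were above 0 and 35 below, with a median of -0.18. Among the 40, 6 (15%) had an unadjusted p under 0.05, all below 0, against 3% of all genes in that direction, with 0 after adjustment. The list median relative to Vav Cre was -0.91 in the double lesion, -0.34 in KDM6B OE and -0.30 in Tet2 KO, against an expectation of -0.63. The 3 double-lesion libraries (-1.26, -0.70 and -0.75) were lower than all 9 others, whose lowest value was -0.47. Without double lesion 1 the median interaction was -0.03, so its size depended on that library. In the libraries without Y transcripts, which hold double lesion 2 as the only library of its group, it was 0.00.

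Bub1, a kinase of the mitotic checkpoint, had 48.2, 58.1 and 62.99 CPM in the double lesion, 92.9, 85.97 and 90.6 CPM in KDM6B OE, 88.2, 82.5 and 94.95 CPM in Tet2 KO and 88.5, 108 and 87.9 CPM in Vav Cre. The 3 other groups overlapped and the double lesion lay below all of them, with differences from Vav Cre of -0.74 in the double lesion, -0.07 in KDM6B OE and -0.09 in Tet2 KO, and an interaction of -0.58 ± 0.18 (unadjusted p = 0.00564, limma). Its partner Bub1b had 110.5, 144 and 137 CPM in the double lesion, 171, 194 and 189 CPM in KDM6B OE, 196, 157 and 214 CPM in Tet2 KO and 189, 179 and 180.4 CPM in Vav Cre and a value of -0.54 ± 0.18. The mitotic motor Kif11 (-0.40 ± 0.16) and the cytokinesis factor Racgap1 (-0.51 ± 0.22) had the same arrangement, with all 3 double-lesion values under every KDM6B OE value. S phase and replication genes had no such shift: 18 of 40 were above 0 and 22 below, with a median of -0.02, and 0 had an unadjusted p under 0.05. Cohesin and condensin subunits had 8 above and 8 below.

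Cytosolic ribosomal protein genes had 78 of 80 values above 0, with a median of 0.18 and 0 with an unadjusted p under 0.05. The list medians relative to Vav Cre were -0.66 in the double lesion, -0.46 in KDM6B OE and -0.39 in Tet2 KO, against an expectation of -0.85. The medians by library were -0.80, -0.59 and -0.60 in the double lesion, -0.53, -0.48 and -0.37 in KDM6B OE, -0.54, -0.11 and -0.48 in Tet2 KO and -0.13, 0.34 and -0.21 in Vav Cre. Vav Cre 2 stood highest of the 12, and without it the median interaction was 0.01. Nuclear-encoded respiratory chain genes had 63 of 74 values above 0 with a median of 0.13, which was -0.04 without Vav Cre 2. Rps13, a small-subunit protein with the smallest p of its list, had a value of 0.37 ± 0.20.

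Lineage genes differed strongly between libraries of 1 group. Bulk libraries cannot separate fewer cells of a type from less RNA per cell. Genes of eosinophils, mast cells and basophils had 10 of 18 values above 0, a median of 0.22 and a range of -0.08 (without KDM6B OE 2) to 0.72 (without Vav Cre 3) when single libraries were left out. Their summed level was 4909, 2199.97 and 1166 CPM in the double lesion, 809, 519.6 and 1382 CPM in KDM6B OE, 663, 1614 and 1224 CPM in Tet2 KO and 1198, 580.2 and 304 CPM in Vav Cre. Epx, the eosinophil peroxidase, had 1043, 368 and 118 CPM in the double lesion, 73.9, 27.2 and 167 CPM in KDM6B OE, 20.8, 75.2 and 118 CPM in Tet2 KO and 119.9, 2.88 and 0.395 CPM in Vav Cre, and an interaction of -0.41 ± 1.83. Libraries of 1 group differed several-fold for Epx, and the SE reflects it.

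Il1rl1, the receptor for interleukin-33 on mast cells, basophils and some progenitors, was steadier (chromosome 1, 40429570 to 40465415). It had 3.805, 3.85 and 4.396 CPM in the double lesion, 2.77, 2.62 and 1.64 CPM in KDM6B OE, 3.09, 2.55 and 4.57 CPM in Tet2 KO and 7.004, 10.9 and 10.9 CPM in Vav Cre. All 9 lesion libraries lay below all 3 Vav Cre libraries, and the double lesion overlapped Tet2 KO and stood above KDM6B OE. The differences from Vav Cre were -1.06 in the double lesion, -1.66 in KDM6B OE and -1.27 in Tet2 KO (SE 0.26), and the interaction was 1.87 ± 0.36 (1.09 to 2.66), with an unadjusted p of 0.000163 and an adjusted p of 0.753 in limma. DESeq2 called it, at an adjusted p of 0.0175 and a value of 2.30. Ms4a2, a subunit of the high-affinity IgE receptor, had 10.9, 7.02 and 8.404 CPM in the double lesion, 4.71, 3.196 and 5.62 CPM in KDM6B OE, 4.89, 11.6 and 7.83 CPM in Tet2 KO and 12.5, 14.7 and 8.83 CPM in Vav Cre and a value of 1.39 ± 0.42. The mast cell protease gene Cpa3 had a value of 0.77 ± 0.33 with the KDM6B OE mean lowest, while the chymase gene Cma1 had -1.79 ± 0.73, so members of this list went both ways.

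MHC class II genes and their activator Ciita had 8 of 10 values above 0 and a median of 0.22. The list stood 1.01, 1.03 and 0.76 above the Vav Cre mean in the double lesion, against 0.18, 0.22 and -0.22 in KDM6B OE, 0.48, 0.51 and 0.31 in Tet2 KO and 0.41, 0.04 and -0.30 in Vav Cre. The double lesion was highest in all 3 libraries, yet the interaction of H2-Aa, an MHC class II chain, was 0.48 ± 0.47, and omitting Vav Cre 1 gave a list median of 0.02, whereas omitting Vav Cre 3 gave 0.40. B cell genes had 12 of 15 values above 0 with a median of 0.10, which ran from -0.06 (without Tet2 KO 3) to 0.43 (without double lesion 2). Their summed level was 155, 117 and 162 CPM in the double lesion, 89.9, 116 and 101 CPM in KDM6B OE, 112, 273 and 91.4 CPM in Tet2 KO and 118, 111 and 126 CPM in Vav Cre. Tet2 KO 2 stood apart in B cell genes, with Cd79a, part of the B cell receptor, at 49.8 CPM and Cd74, the class II invariant chain, at 1074 CPM. The part of these cells in the class II values was not tested.

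Among genes of long-term stem cells 5 of 26 were above 0 and 21 below, with a median of -0.13 and a range of -0.30 (without Vav Cre 1) to 0.01 (without Tet2 KO 1) when single libraries were left out. With a term for sex the median was -0.45. Mecom, a transcription factor needed for stem cell maintenance, had 80.8, 53.6 and 69.4 CPM in the double lesion, 97.004, 90.8 and 85.5 CPM in KDM6B OE, 90.2, 67.2 and 61.4 CPM in Tet2 KO and 78.1, 64.0001 and 61.4 CPM in Vav Cre and a value of -0.53 ± 0.24, which was -0.81 with that term. Socs2, a feedback inhibitor of STAT5 signalling, had 8.91, 10.6 and 9.14 CPM in the double lesion, 13.1, 14.5 and 11.04 CPM in KDM6B OE, 9.69, 10.9 and 11.5 CPM in Tet2 KO and 30.6, 20.4 and 19.2 CPM in Vav Cre. All 9 lesion libraries were lower than the 3 of Vav Cre, with differences of -1.18 in the double lesion, -0.79 in KDM6B OE and -1.03 in Tet2 KO, and the interaction was 0.64 ± 0.29. In the SOCS and STAT5 list of 12 genes, Socs1 had the same sign (0.83 ± 0.32), while Socs3 (-1.02 ± 0.37) and the kinase gene Pim1 (-1.02 ± 0.40) had the opposite sign. Heat-shock chaperones had 3 of 18 above 0 and 15 below, with a median of -0.25 that was -0.10 without Vav Cre 1, and Hspa4l, an HSP110-family member, had -0.65 ± 0.22.

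Lists of chromatin regulators had medians near 0, while single members lay farther out. H3K27 demethylases and PRC2 subunits had 5 of 14 above 0 and 9 below, with a median of -0.05. Kdm6a, the X-linked relative of Kdm6b, had 66.96, 92.2 and 54.4 CPM in the double lesion, 95.6, 102 and 81.3 CPM in KDM6B OE, 58.1, 96.6 and 98.1 CPM in Tet2 KO and 51.95, 77.6 and 76.6 CPM in Vav Cre and a value of -0.68 ± 0.32, and its levels were lower in each library with Y transcripts than in the other libraries of its group. The Y-linked relative Uty was at 3.58 ± 2.37. Tet and Dnmt enzymes had 6 of 9 above 0, and Dnmt3a, a DNA methyltransferase mutated in clonal haematopoiesis, had 147, 149 and 129 CPM in the double lesion, 142, 148 and 143 CPM in KDM6B OE, 136, 106 and 153 CPM in Tet2 KO and 72.5, 44.01 and 141 CPM in Vav Cre and a value of -0.79 ± 0.41; omitting Vav Cre 3 gave -1.22, omitting Vav Cre 2 -0.39. Myeloid neoplasm driver genes had 11 of 20 above 0 with a median of 0.02, and 0 with an unadjusted p under 0.05. Medians of 43 of the 47 lists other than sex-linked genes lay within plus or minus 0.25. The 4 outside were the histones, the T and NK cell genes, the interferon response and the Egr and Nr4a factors, the last with only 4 tested genes. The T and NK cell median of 0.30 was -0.12 in the libraries without Y transcripts, where double lesion 2 is the only library of its group.

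**Figure D4:**
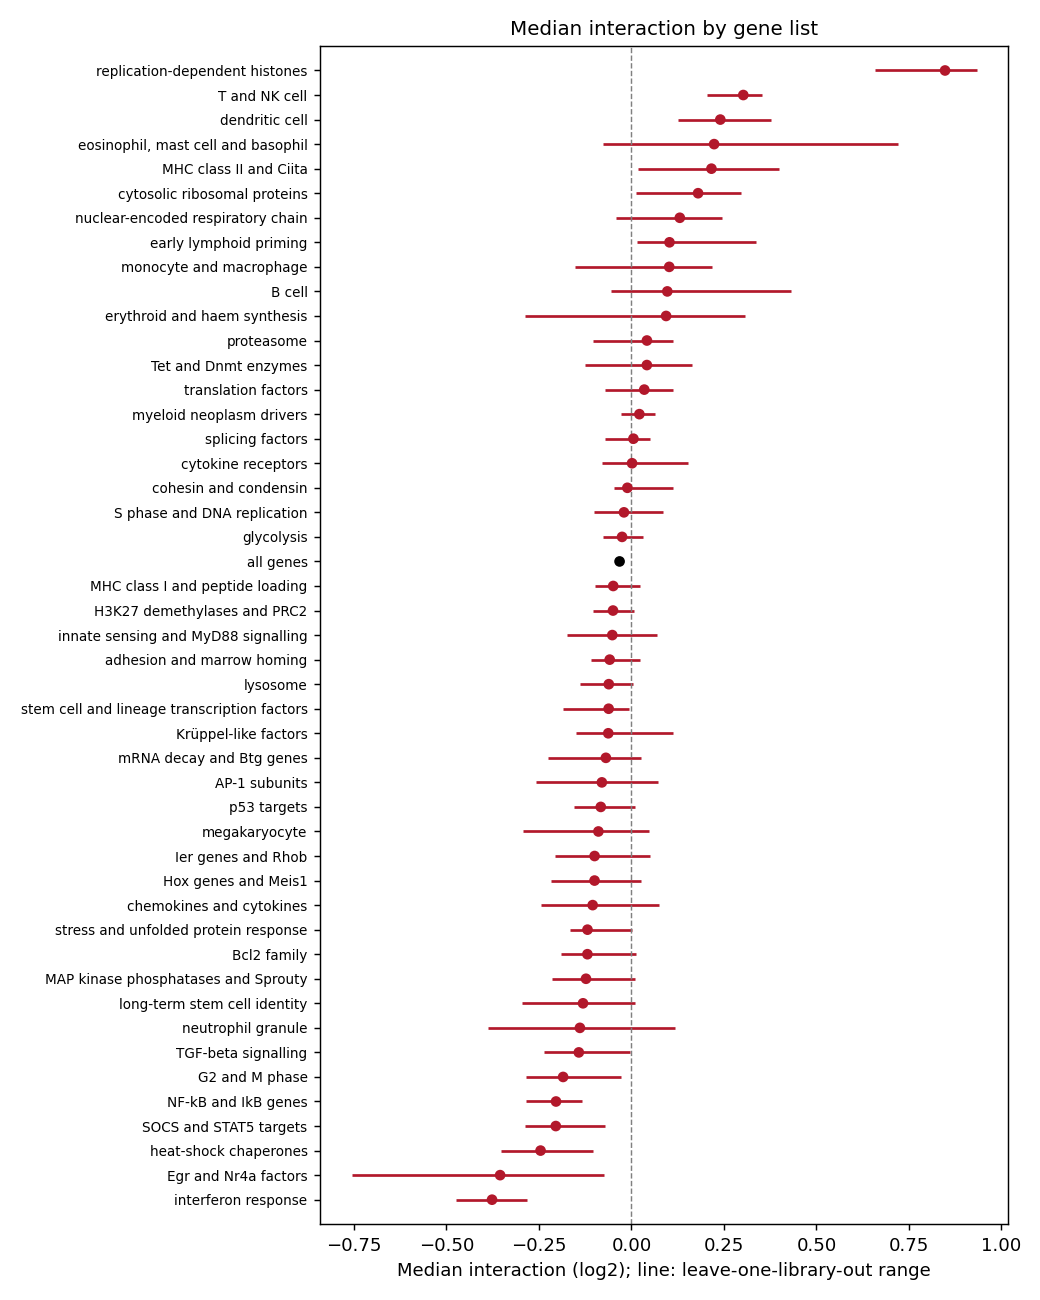
Median interaction (log2, x axis) of each gene list (rows, without the sort markers and the sex-linked genes), with a line for the range when each library is left out in turn. The black point is the median of all tested genes, whose range of -0.045 to -0.026 is short. Histones (0.85) stand apart at the top. Interferon response genes (-0.38) are lowest, next to the Egr and Nr4a factors (-0.35), and the lines of most other lists cross or come close to 0.

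The genes with the smallest p-values fell into a few arrangements, given here as values because none passed in limma. Pomt2, a mannosyltransferase of the endoplasmic reticulum (chromosome 12, 87106861 to 87147968), had 13.6, 13.02 and 15.7 CPM in the double lesion, 19.9, 20.04 and 17.7 CPM in KDM6B OE, 20.7, 21.7 and 19.4 CPM in Tet2 KO and 10.3, 10.9 and 12.2 CPM in Vav Cre. Each single lesion lay above the double lesion, and the double lesion lay above Vav Cre, without overlap. The differences from Vav Cre were 0.32 in the double lesion, 0.74 in KDM6B OE and 0.83 in Tet2 KO (SE 0.16), so that additivity would put the double lesion at 34.95 CPM against an observed 14.1 CPM. The interaction was -1.25 ± 0.23, with an unadjusted p of 7.98e-05 and an adjusted p of 0.753 in limma, and DESeq2 called it at an adjusted p of 0.000189. Its exons overlap Gstz1 on the opposite strand, and the kit does not keep strand, so reads within the overlap cannot be told apart.

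Uso1, a vesicle tether between the endoplasmic reticulum and the Golgi, had the same arrangement as Pomt2 except that double lesion 3 (58.4 CPM) lay below Vav Cre 3. It had 66.2, 62.8 and 58.4 CPM in the double lesion, 73.7, 84.5 and 71.99 CPM in KDM6B OE, 77.7, 79.9 and 70.7 CPM in Tet2 KO and 50.5, 52.4 and 60.9 CPM in Vav Cre, with an interaction of -0.76 ± 0.16. Col1a2, a chain of type I collagen, had 1.68, 2.87 and 1.79 CPM in the double lesion, 6.34, 8.97 and 6.36 CPM in KDM6B OE, 3.39, 8.38 and 6.96 CPM in Tet2 KO and 1.44, 3.57 and 0.351 CPM in Vav Cre. Both single lesions ranged above the double lesion, and the interaction was -2.89 ± 0.57 (-4.10 to -1.67). Collagen of this type is made mainly by stromal cells, and no list of stromal markers was measured here.

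In other genes all 3 lesion groups lay above Vav Cre and near one another. Cables1, which links cyclin-dependent kinases to the kinase ABL, had 26.4, 25.4 and 20.7 CPM in the double lesion, 24.5, 27.4 and 24.2 CPM in KDM6B OE, 24.4, 15.4 and 27.9 CPM in Tet2 KO and 7.004, 6.91 and 10.9 CPM in Vav Cre. The lesion groups overlapped one another and lay above every Vav Cre library, with differences of 1.46 in the double lesion, 1.53 in KDM6B OE and 1.33 in Tet2 KO, and an interaction of -1.40 ± 0.32. Pramef8, of the Prame family, had 41.3, 38.01 and 43.3 CPM in the double lesion, 38.9, 39.01 and 33.1 CPM in KDM6B OE, 49.6, 43.5 and 45.9 CPM in Tet2 KO and 24.7, 21.6 and 24.8 CPM in Vav Cre and a value of -0.80 ± 0.18. DESeq2 called Cables1, Pramef8 and Uso1, each at an adjusted p of 0.047, where limma gave 0.999. Psd4 (-0.88 ± 0.22), Fam171a1 (-0.86 ± 0.20), Atp8b2 (-1.03 ± 0.27) and Gcn1l1 (-0.92 ± 0.24) likewise had the lowest mean in Vav Cre. Where the other 3 means are equal, the interaction is the Vav Cre mean minus that common level.

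Genes above additivity had several arrangements. Scin, an actin-severing protein, had 10.7, 10.3 and 13.6 CPM in the double lesion, 5.99, 3.03 and 2.69 CPM in KDM6B OE, 14.2, 12.6 and 14.3 CPM in Tet2 KO and 17.1, 13.8 and 10.5 CPM in Vav Cre. KDM6B OE alone was low, below all 9 other libraries, while the double lesion overlapped Tet2 KO and Vav Cre, and the interaction was 1.39 ± 0.37 (unadjusted p = 0.00203, limma). Cd37, a tetraspanin of leukocytes, had 97.4, 115 and 105 CPM in the double lesion, 78.2, 79.6 and 81.5 CPM in KDM6B OE, 79.1, 77.3 and 68.9 CPM in Tet2 KO and 89.9, 81.2 and 89.05 CPM in Vav Cre. Here the double lesion was above every other library, and both single-lesion means were under that of Vav Cre, with an interaction of 0.61 ± 0.15 (0.29 to 0.92); its exons overlap Tead2 on the opposite strand. Id2, an inhibitor of helix-loop-helix factors, had 32.1, 43.7 and 43.8 CPM in the double lesion, 27.2, 19.5 and 22.4 CPM in KDM6B OE, 30.3, 27.7 and 28.1 CPM in Tet2 KO and 45.2, 44.2 and 25.1 CPM in Vav Cre and a value of 1.12 ± 0.31. The double lesion lay above both single lesions for Id2 and overlapped Vav Cre. Ebi3, a cytokine subunit, had 27.6, 21.5 and 24.01 CPM in the double lesion, 18.7, 15.2 and 17.1 CPM in KDM6B OE, 17.8, 18.2 and 19.2 CPM in Tet2 KO and 23.2, 21.5 and 21.8 CPM in Vav Cre and a value of 0.75 ± 0.22, with the double lesion again near Vav Cre and both single lesions lower.

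Slc7a1, an arginine transporter, and Fgf3, a growth factor gene, were taken from earlier results on Tet2 loss. Slc7a1 had 21.7, 22.2 and 19.8 CPM in the double lesion, 23.3, 22.7 and 24.1 CPM in KDM6B OE, 18.8, 15.9 and 19.2 CPM in Tet2 KO and 31.03, 32.1 and 33.3 CPM in Vav Cre. Vav Cre was highest, and the other 3 groups lay lower and closer together, with an interaction of 0.68 ± 0.20. Fgf3 had 29.3, 23.4 and 19.1 CPM in the double lesion, 9.64, 10.9 and 12.9 CPM in KDM6B OE, 26.9, 28.3 and 26.5 CPM in Tet2 KO and 12.1, 9.15 and 6.99 CPM in Vav Cre, where both groups with Tet2 loss were high, and its interaction was -0.44 ± 0.30 (-1.09 to 0.21).

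**Figure D5:**
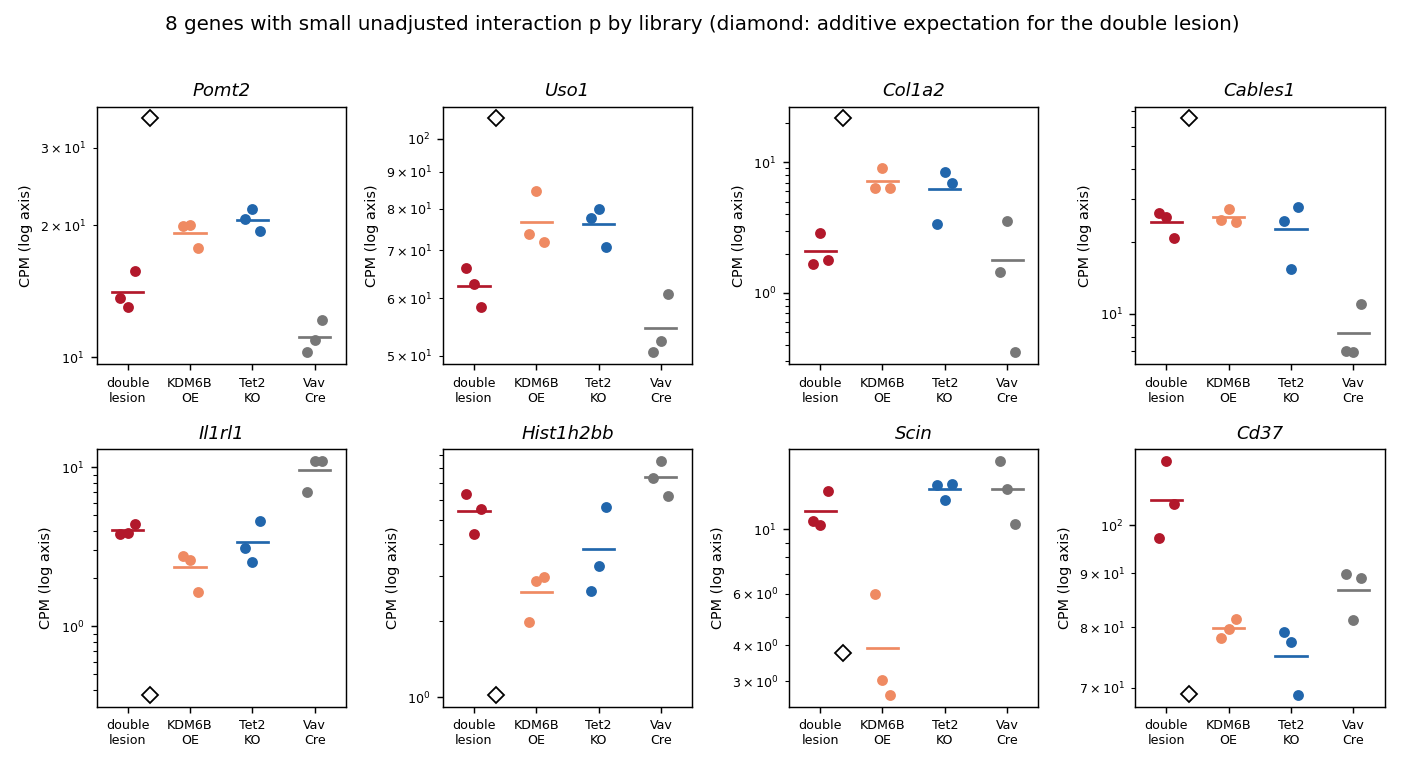
CPM (log y axis) of 8 genes with small unadjusted interaction p in each library, with points for libraries, bars for group means and an open diamond for the additive expectation of the double lesion. For Pomt2 the double lesion (13.6, 13.02 and 15.7 CPM) lies under the expectation of 34.95 CPM, and for Cd37 (97.4, 115 and 105 CPM) above that of 68.996 CPM.

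The largest interactions among genes averaging above 10 CPM were those of sex-linked and strongly library-dependent genes. The Y-linked genes Ddx3y (4.59 ± 2.64), Eif2s3y (4.34 ± 2.74), Uty and Kdm5d (3.39 ± 2.16) and the X-inactivation transcript Xist (-4.37 ± 2.92) had SEs above 2 and unadjusted p-values of 0.105 to 0.157. Libraries with Y transcripts were spread unevenly over the groups, with 2 in the double lesion, 0 in KDM6B OE, 1 in Tet2 KO and 1 in Vav Cre. Thbs1, an adhesive glycoprotein of platelets and stroma, had 0.373, 3.17 and 0.233 CPM in the double lesion, 39.8, 109 and 3.51 CPM in KDM6B OE, 0.9, 41.4 and 14.2 CPM in Tet2 KO and 2.801, 3.797 and 31.1 CPM in Vav Cre and a value of -4.18 ± 1.70. Values of Thbs1 spanned more than an order of magnitude within every group. Gbp6, an interferon-induced GTPase, had 10.6, 19.02 and 12.2 CPM in the double lesion, 39.4, 66.01 and 11.2 CPM in KDM6B OE, 14.1, 47.7 and 28.4 CPM in Tet2 KO and 10.4, 11.1 and 30.97 CPM in Vav Cre and a value of -1.91 ± 0.81, and the myosin light chain gene Myl10 -2.55 ± 1.26. Npm3, a histone chaperone of the nucleolus, had 13.8, 25.97 and 23.6 CPM in the double lesion, 17.8, 9.096 and 9.79 CPM in KDM6B OE, 15.5, 19.2 and 17.2 CPM in Tet2 KO and 20.4, 51.9 and 23.5 CPM in Vav Cre and a value of 1.49 ± 0.48, with Vav Cre 2 the highest of the 12 libraries.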

How the data were processed

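Poly(A) RNA was amplified from 10 to 20 ng of total RNA of sorted cells with an oligo-dT template-switching kit and tagmented, per the labels' protocols. Per the submitters' processing notes, TopHat2 2.0.10, HTSeq 0.6.0 and edgeR 3.8.6 were used on mm10. The gene models and strand option of the counting: not given in the sources used here. Values of the deposited table are in a signal unit: whole reads divided by the authors' effective library size and scaled to CPM. All values (100%, tolerance 1e-06 reads) gave back whole reads, 21935022 to 26263370 per library. A gene listed at 0 had 0 reads. Its expected level could still be up to 3 reads (0.112 to 0.139 CPM), a bound on counting error alone because amplified copies are not marked. The lowest total of a listed gene was 10 reads. Chi-square values per gene of 19.5 to 100.4 between replicates exceeded sampling noise, and each library was counted once.

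A model with 1 mean per group was fitted by limma 3.58.1 (R 4.3.3, empirical Bayes with a mean trend) to log2(CPM + 1) of genes above 1 CPM in at least 3 libraries, which set aside 2320 genes. Adjusted p-values are Benjamini-Hochberg over all tested genes, with 0.05 as the threshold, and intervals are 95%. Log2 differences on this scale understate those of low genes. Additive expectations in CPM were turned back from the log2 means. edgeR 4.0.16 and DESeq2 1.42.0 were run on the recovered reads as alternatives, and the steps were tested on simulated data. Plain CPM had been foreseen, and the planned test was kept for this unit.

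The comparison, the gene lists (48) and the named genes were chosen with earlier results of these data known, so lists have counts and medians and no test. Genes were named by rule: the 15 per direction with the smallest unadjusted p, since none was called; the 5 per direction with the largest interaction among genes averaging above 10 CPM; up to 4 members per list with the smallest p; and a set taken from earlier results. Genes called by DESeq2 alone, list members that are exceptions to a count, and marker genes of the sort and of other cell types are named beside them. Some genes that the rule names are not reported here. Coordinates and overlaps come from GENCODE (GRCm38), with which 15226 of 15366 symbols (99.1%) were matched, and promoters from RefSeq (GRCm38.p6).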

Additional observations from a re-analysis of the deposited data

How the results depend on the processing

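The count of genes called in the interaction was 0 in the limma fit and in every alternative run except DESeq2, which called 5. The count at an unadjusted p under 0.05, 578 in the limma fit, was 1574 with weights per library and 359 in the libraries without Y transcripts alone, and ran from 380 (without KDM6B OE 2) to 1249 (without Vav Cre 3) when single libraries were left out. The cause of these differences was not tested. It was 563 with a pseudocount of 0.25, 682 without a filter, 458 with a filter above 5 CPM, 534 with equal column totals, 838 with a sex term and 585 on the linear scale. The median of all genes moved to 0.01 with DESeq2 and 0.00 with quantile normalization. Replicate numbers were not shown to pair the libraries (18 pairs with correlations of -0.149 to 0.388, 10 above 0.1, among them all 6 of number 1 and all 3 between Tet2 KO and Vav Cre at 0.2996 to 0.3399; 6 of 12 libraries correlated best with their own number). With the replicate number as a block, 0 genes were called and 724 had an unadjusted p under 0.05. Double lesion 1, Tet2 KO 1 and Vav Cre 1 also shared Y transcripts, which KDM6B OE 1 lacked. The main fit treats libraries as independent, and the effect of these correlations on its SE was not tested. The median SE was larger at lower levels: 0.47 for genes averaging up to 1 CPM, 0.44 between 1 and 10 CPM and 0.18 above 100 CPM.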
